A study of Mus musculus with 6 samples.

Results

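The genes of inositol metabolism were followed here in sorted mouse cells with and without a deletion in Bud31, the gene of a spliceosome protein. The sample titles call the cells spermatogonial stem cells. The genes are Isyna1, Impa1, Impa2, Slc5a3, Miox, Cdipt, Itpk1, Ippk, Ip6k1 and Ip6k2. These 10 of the 51912 genes in the count table were each matched to 1 row by Ensembl identifier. RNA was measured by Smart-Seq2, a method that amplifies full-length cDNA from little RNA. The cells came from C57BL/6J testes at postnatal day 4 and were sorted as THY1+ and c-KIT-. One group of 3 libraries was wild type, and the other group of 3 libraries was Bud31-vKO, made by Cre-loxP deletion of Bud31. The sources used here do not give the Cre driver, the meaning of the v, the deleted exons or the number of animals behind a library. Nothing says that libraries come from separate animals, so p-values measure the spread between these libraries, which may be technical. The table calls its columns C1 to C3 and T1 to T3. The C columns were read as wild type and the T columns as Bud31-vKO. The labels do not spell these letters out, and every direction below goes with that reading.

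Inositol is a sugar alcohol that cells make from glucose 6-phosphate or take up from their surroundings. It is the head group of phosphatidylinositol, the lipid from which the phosphoinositide signals and inositol trisphosphate are made, and it serves as an osmolyte. Testicular fluid is known for its high content of inositol. ISYNA1 makes inositol 3-phosphate from glucose 6-phosphate, the committed step of synthesis, and the monophosphatases IMPA1 and IMPA2 remove the phosphate. SLC5A3 takes up inositol with sodium, MIOX opens the ring and starts its breakdown, and CDIPT joins inositol to CDP-diacylglycerol to form phosphatidylinositol. ITPK1, IPPK, IP6K1 and IP6K2 are kinases that build the higher inositol phosphates and pyrophosphates.

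Isyna1 was chosen by the same contrast that is described here. In an edgeR fit of these counts without a filter on low counts it passed with an adjusted p of 0.00499, as 1 of 7 genes. Such calls made up 0.0256% of the 27381 genes with a read. The difference of Isyna1 between the groups is therefore given as a description with no test, and the other members were added as its pathway with results of these data known.

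The promoters of Isyna1 and Slc5a3 are shown because these genes stand for the 2 routes of inositol supply, synthesis and uptake. Of the 10 genes, 7 had a promoter window of 300 bases (250 before and 50 after the start site) in the RefSeq table on GRCm38.p6. The Isyna1 window lies at chr8:70594231-70594530 and the Slc5a3 window at chr16:92058072-92058371, both on the plus strand. Capitals mark matches to the CCAAT box (letters CCAAT) or the GC box (letters GGGCGG) on either strand.
Isyna1: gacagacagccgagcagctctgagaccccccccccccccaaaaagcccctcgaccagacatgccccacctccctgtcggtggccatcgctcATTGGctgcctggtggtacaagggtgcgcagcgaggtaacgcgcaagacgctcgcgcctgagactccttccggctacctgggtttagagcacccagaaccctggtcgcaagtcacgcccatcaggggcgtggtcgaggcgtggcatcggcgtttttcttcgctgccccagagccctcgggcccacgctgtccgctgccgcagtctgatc
Slc5a3: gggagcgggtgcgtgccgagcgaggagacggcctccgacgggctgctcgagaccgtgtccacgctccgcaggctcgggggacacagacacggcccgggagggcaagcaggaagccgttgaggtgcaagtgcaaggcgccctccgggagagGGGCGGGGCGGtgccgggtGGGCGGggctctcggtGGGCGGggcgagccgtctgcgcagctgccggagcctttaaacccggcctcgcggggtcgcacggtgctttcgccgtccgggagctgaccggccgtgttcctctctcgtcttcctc
In Isyna1 the CCAAT box was found once, on the minus strand, 159 bases before the start site of the RefSeq table, and the GC box was not found. In GENCODE M21 the gene starts at 70594373, inside this window and before the RefSeq start site. Part of the Isyna1 window thus lies within the gene as annotated there. In Slc5a3 the GC box was found 4 times on the plus strand, 100, 95, 81 and 65 bases before the start site, and the first pair of matches shares 1 letter. Over all 32851 promoter windows in the RefSeq table, 37.4% held a CCAAT box and 35.7% a GC box. Neither window held a TATA box (TATAAA, in 13.6% of all windows), an E box (CACGTG, 7.15%) or either of the E2F motifs searched (TTTGGCGC, 0.514%, and TTTCCCGC, 1.07%). The G and C content was 66.0% in Isyna1 and 73.3% in Slc5a3, against a median of 52.7% over all windows.

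The libraries held 13240704 to 18744466 reads, and 12464 to 22300 genes had a read. C3 and T2 had the fewest, with 13762 and 12464 genes. The biological coefficient of variation, which tells how far libraries of a group differ beyond counting error, was 119% over all genes. Bud31 measured 137.8, 96.8 and 157.9 CPM (reads per 1000000 reads of the library, scaled with TMM factors) in C1 to C3 and 47.2, 67.6 and 80.4 CPM in T1 to T3, so the groups did not overlap. Of all genes tested, 6.39% likewise did not overlap in the lower direction. The log2 fold change of Bud31 was -1.01 (standard error 0.39, adjusted p = 0.9997 by edgeR). Bud31 shares 244 exon bases with Ptcd1 on the other strand. The summed level of 14 pan-germ-cell markers ranged from 3824 to 4555 CPM in wild type and from 2101 to 2999.9 CPM in Bud31-vKO. The 10 markers of spermatogonial stem cells summed to 624 to 1039 CPM in wild type, and in Bud31-vKO to 394 to 705 CPM. Nanos2, a factor of stem cell maintenance, was near 0 in both groups, with 0.073 CPM in C1 and no read in the other libraries. Eomes had no read in C2, T2 and T3, and Nanos3 none in C3 and T2. Id4 had no read in C3 and measured 0.143 CPM in T2. The remaining markers of this list had reads in every library and differed in where they peaked. Etv5 was highest in C2, at 338 CPM, and Bcl6b in T3, at 211 CPM, with 4.66 CPM in C3. The 6 stromal markers, collagens and matrix genes among them, summed to more than either germ cell list, in every library, with 10310 to 21650 CPM in wild type, and in Bud31-vKO with 8151 to 14578 CPM. The part of other cells in the values below was not tested, and fewer cells of a type cannot be told apart from less RNA per cell.

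Isyna1 had the highest level of the 10 genes in wild type and stood lower in Bud31-vKO. Its level was 272, 532 and 684 CPM in C1 to C3, and 99.4, 47.4 and 131.8 CPM in T1 to T3, from 664 to 11753 reads per library. Each Bud31-vKO library lay below each wild type library, and the libraries with the fewest genes detected held both ends of the range, C3 the highest level and T2 the lowest. The wild type mean was 496 ± 208 CPM and the Bud31-vKO mean 92.9 ± 42.6 CPM (SD, n = 3 in each group), a 5.35-fold lower level. The log2 fold change by edgeR was -2.42 (standard error 0.50). Among the 4 libraries with the most genes detected, C1, C2, T1 and T3, it was -1.79 with a standard error of 0.43. Isyna1 (ENSMUSG00000019139) is a plus-strand gene of chromosome 8 in GRCm38, from 70594373 to 70597290. It has up to 11 exons in a transcript, and shares no exon base with another annotated gene.

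**Figure D1:**
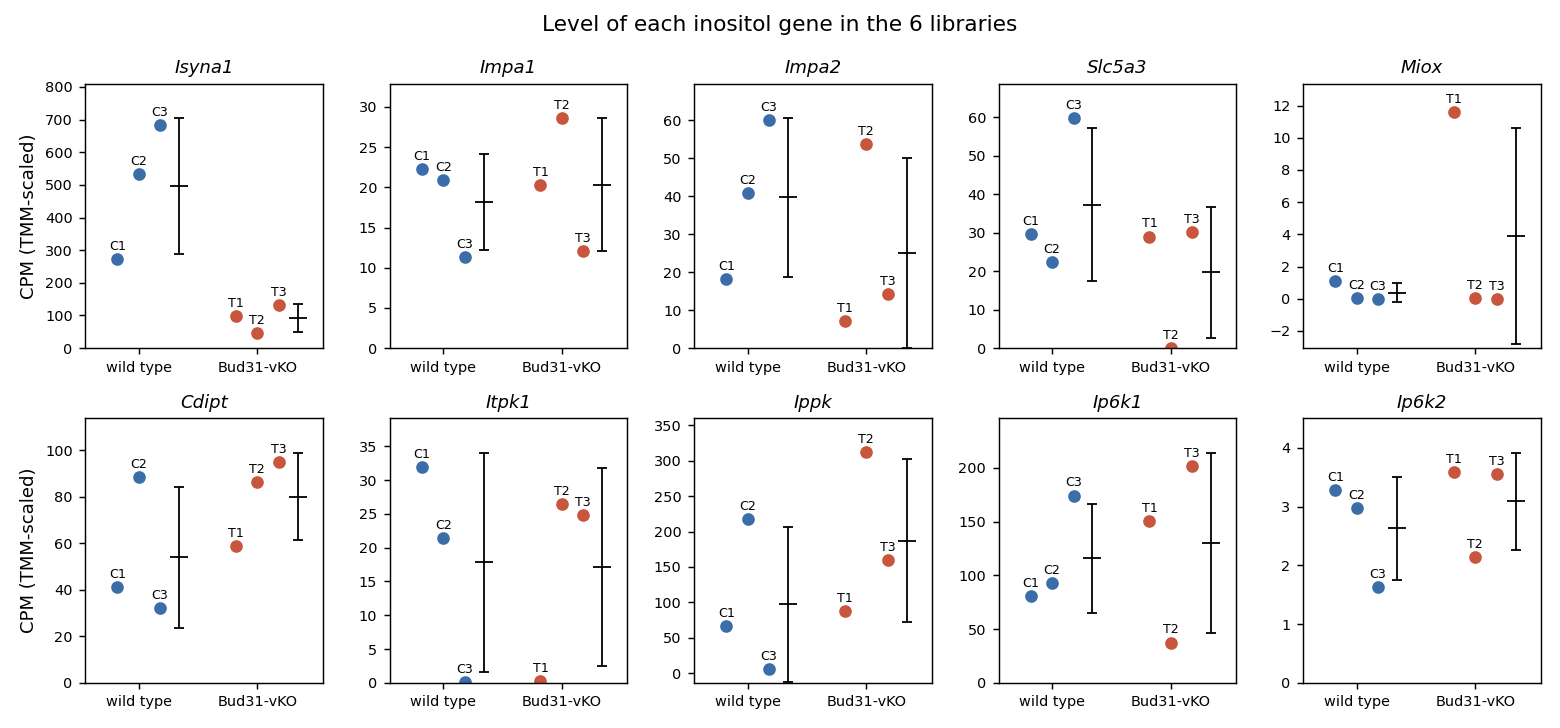
Level of the 10 genes in CPM (vertical axis, a separate linear scale for each gene) in the 3 wild type libraries (blue) and 3 Bud31-vKO libraries (red), with the library names at the points and the mean ± SD beside each group; bars that reach below 0 show only how large the SD is. Isyna1 lies between 272 and 684 CPM in wild type and between 47.4 and 131.8 CPM in Bud31-vKO, and the groups overlap in the other 9 genes.

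The sums of the pan-germ-cell markers and of the T and NK cell markers did not overlap between the groups either, while the sum of the stem cell markers overlapped. Of the single pan-germ-cell markers, Ddx4, Mael, Elavl2, Dmrt1 and Rbm46 did not overlap, and the others did. Piwil2 measured 399 and 398 CPM in T2 and T3, against at most 326 CPM in wild type. Piwil4 at 119 CPM in T2 and Tex14 at 267 CPM in T3 also lay above every wild type library. Dazl was the largest single marker in every library, at 906 to 1824 CPM. Isyna1 was set against the summed pan-germ-cell markers in the same library. Per 1000 CPM of these markers it measured 59.8, 123 and 179 CPM in C1 to C3 and 47.3, 16.7 and 43.9 CPM in T1 to T3. The groups did not overlap on this scale, though C1 and T1 came close to each other. As Isyna1 was chosen by this contrast, these ratios are a description and nothing is read from them. In CPM, 6.39% of all genes tested had groups that did not overlap in the lower direction. The mean ratio was 121 ± 59.6 in wild type and 36.0 ± 16.8 in Bud31-vKO (SD, n = 3 each), or 3.35-fold lower. The sum of the markers was 1.60-fold lower. The 8 markers of T and NK cells summed to 13.1 to 127 CPM in wild type, and in Bud31-vKO to 135 to 742 CPM, highest in T2, with Cd2 at 0 reads in C3, T1 and T2 and Cd3e in C3 and T2. The 11 Sertoli cell markers summed to 78.5 to 418 CPM in wild type, and in Bud31-vKO to 194 to 1775 CPM, so that the groups overlapped, with Fshr and Dhh at 0 reads in 4 libraries. The part of these cells in the level of Isyna1 was not tested.

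**Figure D2:**
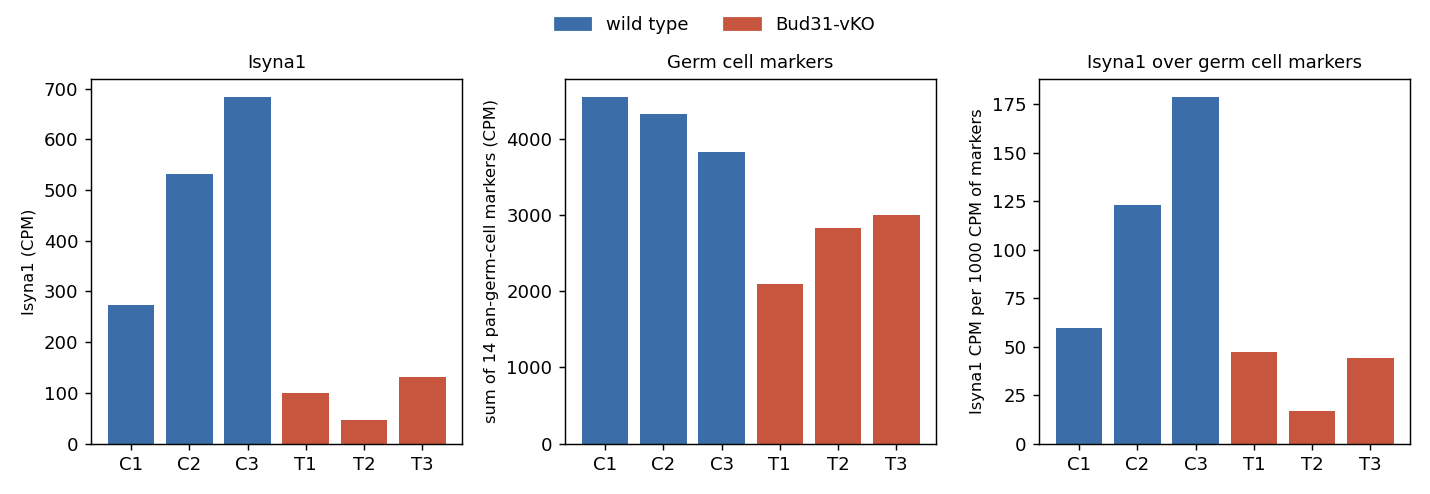
Isyna1 in CPM, the summed CPM of 14 pan-germ-cell markers, and Isyna1 CPM per 1000 CPM of these markers (vertical axes, from 0) in each library, wild type in blue and Bud31-vKO in red. In all 3 panels each Bud31-vKO library lies below each wild type library, and C1 and T1 come closest in the last, at 59.8 and 47.3.

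The quasi-likelihood test of edgeR was run over the 15240 genes that passed the filter on low counts. After Benjamini-Hochberg adjustment over these genes, 0 of the 9 members tested passed, with an adjusted p of 0.9997 for each. The background was the same, with 0% of all genes called, and 443 genes had an unadjusted p under 0.05. None of the 8 tested members other than Isyna1 was among these. Miox was the 1 member that did not pass the filter. DESeq2 called 47 genes, 0.314% of those it tested, and limma-voom 0. Isyna1 was the 1 member that DESeq2 called, and nothing is read from this, as the gene was chosen by the contrast. Groups did not overlap for 1 of the 9 members in the lower direction, Isyna1 itself, and for 0 in the higher direction, against 6.39% and 4.76% of all genes tested. Of the 9, 4 lay below 0 on the log2 scale, and the median was 0.16, beside 0.02 over all genes tested.

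**Figure D3:**
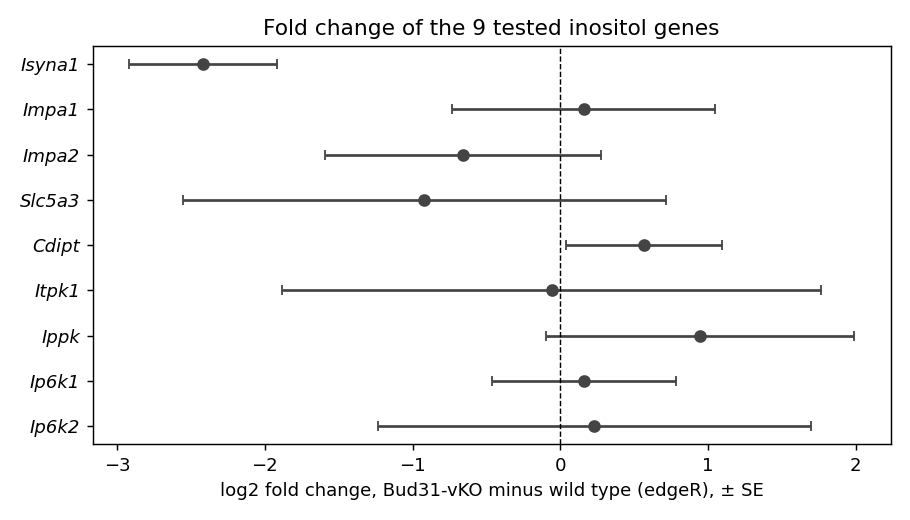
Log2 fold change of Bud31-vKO minus wild type by edgeR (horizontal axis) with its standard error (bars) for the 9 inositol genes that passed the filter. Isyna1 lies at -2.42, while Slc5a3, at -0.92, and Ippk, at 0.95, have standard errors of 1.63 and 1.04.

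The monophosphatases that act after ISYNA1 overlapped between the groups. Impa1 measured 22.3, 20.9 and 11.4 CPM in C1 to C3 and 20.3, 28.6 and 12.1 CPM in T1 to T3. The ranges overlapped, with T2 above every wild type library, and the log2 fold change was 0.16 (standard error 0.89). Impa2 measured 18.2, 40.8 and 60.0 CPM in C1 to C3 and 7.24, 53.7 and 14.3 CPM in T1 to T3, lowest in T1 and T3 and high in T2. Its log2 fold change was -0.66 (standard error 0.93), -1.87 without T2 and -0.19 without T1. Per length of exon, which allows genes to be compared, Impa1 stood at 1.21, 0.507 and 0.187 times the level of Impa2 in C1 to C3 and at 2.77, 0.526 and 0.829 times in T1 to T3. The ratio spanned both sides of 1 in each group, and the groups overlapped. Impa1 is a minus-strand gene of chromosome 3, from 10311956 to 10331439. It shares 243 exon bases with Gm38303 on the same strand, which had no read in any library. Impa2 lies on chromosome 18 and shares 1264 exon bases with B430212C06Rik on the other strand, which had at most 48 reads in a library. As the use of strand in the counting is not known, reads from overlapping exons cannot be told apart.

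Slc5a3, the uptake route, was at similar levels in 4 libraries and far off in the others. It measured 29.6, 22.4 and 59.8 CPM in C1 to C3, and 29.0, 0 and 30.1 CPM in T1 to T3. T2 had no read of the gene, where 3 reads, the limit that a count of 0 allows, would equal 0.214 CPM, which covers counting error only. The log2 fold change was -0.92 (standard error 1.63). It was -0.33 without T2 and -0.39 without C3, and among the 4 libraries with the most genes detected it turned to 0.20. Slc5a3 lies on chromosome 16 from 92058322 to 92087473 and shares 159 exon bases with Mrps6, a gene of the mitochondrial ribosome on the same strand, which measured 42.6 to 68.7 CPM in wild type, and in Bud31-vKO 35.7 to 57.7 CPM. In T2, where Slc5a3 had no read, Mrps6 was at 35.7 CPM.

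Miox, the enzyme of inositol breakdown and known from kidney, was near 0 in 5 libraries. It had 15, 1 and 0 reads in C1 to C3 and 159, 1 and 0 reads in T1 to T3. The 159 reads in T1 equal 11.6 CPM, and T1 was also the library with most RNA of Sertoli cell markers, 1775 CPM in sum. Whether these go together was not tested. No fold change is given for this gene, which lies on chromosome 15 from 89334398 to 89337015.

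Cdipt, which uses inositol to make phosphatidylinositol, measured 41.3, 88.4 and 32.1 CPM in C1 to C3 and 58.9, 86.6 and 94.8 CPM in T1 to T3. C1 and C3 lay below all Bud31-vKO libraries, while C2 lay among them. The log2 fold change was 0.57 (standard error 0.53). It was 1.12 without C2 and 0.25 among the 4 libraries with the most genes detected. Cdipt lies on chromosome 7 from 126975914 to 126980501 and shares 169 exon bases with Cdiptos on the other strand, which had at most 118 reads in a library.

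The kinases of the higher inositol phosphates varied widely from library to library. Ippk, which makes inositol hexakisphosphate, measured 66.9, 218 and 5.76 CPM in C1 to C3 and 88.3, 313 and 159.9 CPM in T1 to T3. C3 stood far below the other libraries, and the remaining wild type values overlapped with Bud31-vKO. The log2 fold change was 0.95 (standard error 1.04). It was 2.35 without C2, 0.42 without C3, 0.37 without T2, and -0.19 among the 4 libraries with the most genes detected. Ippk lies on chromosome 13 from 49421249 to 49464573 and shares 315 exon bases with Cenpp, a centromere gene on the other strand, which measured 51.1, 35.9 and 35.6 CPM in C1 to C3 and 30.1, 0.214 and 11.2 CPM in T1 to T3. Itpk1, which phosphorylates inositol phosphates with fewer phosphates, had 438, 388 and 3 reads in C1 to C3 and 3, 370 and 335 reads in T1 to T3. Each group thus had 1 library at 3 reads, C3 and T1, with the others between 21.4 and 31.9 CPM. The log2 fold change was -0.06 (standard error 1.83), and -1.08 among the 4 libraries with the most genes detected. Itpk1 lies on chromosome 12 from 102568582 to 102704930 and shares 109 exon bases with Gm28373 on the same strand, which had at most 40 reads in a library.

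The kinases IP6K1 and IP6K2 make inositol pyrophosphates. Ip6k1 measured 81.2, 92.8 and 174 CPM in C1 to C3 and 150.7, 37.5 and 202 CPM in T1 to T3, with the lowest and the highest level both in Bud31-vKO. Its log2 fold change was 0.16 (standard error 0.62), and 1.03 with a standard error of 0.34 among the 4 libraries with the most genes detected (adjusted p = 0.753 by edgeR). Ip6k2 had 28 to 54 reads per library, or 1.63 to 3.58 CPM, and its log2 fold change was 0.23 (standard error 1.46). Per length of exon Ip6k1 stood 10.99 to 67.0 times above Ip6k2, and above it in all 6 libraries. Ip6k1 shares 942 of its 6487 exon bases with Gm20662 on the same strand, which had no read in any library. How reads in shared bases were counted is not known, so the level of Ip6k1 per length may be affected. Both genes lie on chromosome 9 on the plus strand, Ip6k1 from 108002501 to 108048782 and Ip6k2 from 108783796 to 108806337.

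The order of the genes per length of exon set Isyna1 apart in wild type but not in Bud31-vKO. In wild type Isyna1 stood at 204 ± 85.5 CPM per kb (SD, n = 3), and its lowest library, 112 CPM per kb, lay above the highest of Cdipt, the next gene, at 34.1. Cdipt, Ippk and Ip6k1 followed with means of 20.8, 20.1 and 17.9 CPM per kb and overlapping ranges. Impa2, Itpk1, Slc5a3 and Impa1 came next with means between 7.39 and 3.35 CPM per kb, each overlapping with its neighbour. Ip6k2 and Miox were last with 0.647 and 0.232 CPM per kb. In Bud31-vKO the means were 38.7 CPM per kb for Ippk, 38.1 for Isyna1, 30.9 for Cdipt and 20.03 for Ip6k1, and the ranges of neighbours overlapped through the whole order. As a share of the summed level of the 10 genes per length, Isyna1 made up 63.7%, 65.6% and 82.5% in C1 to C3 and 33.8%, 13.2% and 31.7% in T1 to T3. The sum itself was 175, 333 and 341 CPM per kb in C1 to C3 and 121, 147 and 171 CPM per kb in T1 to T3. These shares include the gene chosen by the contrast and are a description.

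**Figure D4:**
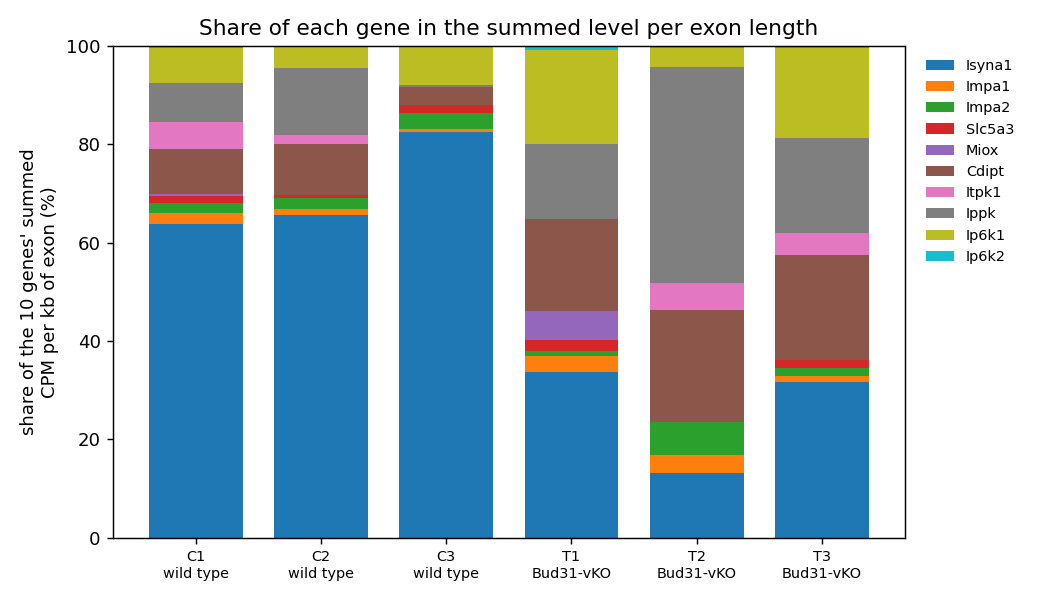
Share of each gene (colours) in the summed CPM per kb of exon of the 10 genes (vertical axis, in percent) in each library. Isyna1 makes up 63.7% to 82.5% in the wild type libraries C1 to C3 and 13.2% to 33.8% in the Bud31-vKO libraries T1 to T3.

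None of the other members followed Isyna1 closely over the 6 libraries. On the log2 CPM scale Pearson's r with Isyna1 was 0.72 for Slc5a3, 0.43 for Ip6k1 and 0.34 for Impa2, and negative for the remaining 5 tested members, down to -0.63 for Ippk. All r rest on the same 6 libraries and include the difference between the groups. The ranking covered the 8383 named genes whose mean log2 CPM reached 4. The 5 with the highest r were Dnaaf5, Hsdl1, Sdad1, Nsl1 and Tarbp2, with r from 0.987 to 0.993, and 143 genes reached 0.9. Dnaaf5, an assembly factor of ciliary dynein, measured 69.4, 130.8 and 186 CPM in C1 to C3 and 38.9, 22.0 and 44.5 CPM in T1 to T3. Hsdl1, a member of the hydroxysteroid dehydrogenase family, measured 27.1, 62.4 and 90.5 CPM in C1 to C3 and 12.6, 4.71 and 18.7 CPM in T1 to T3. Both had the same order of libraries as Isyna1. Sdad1, Nsl1, a kinetochore protein, and Tarbp2, a partner of Dicer, had log2 fold changes of -0.71, -1.59 and -1.40. This likeness was measured on the contrast that chose Isyna1.

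The wider pathway was covered by 7 lists with 83 genes, of which 80 were tested. By edgeR 0 passed over all genes, and 3 had an unadjusted p under 0.05, beside 443 of all 15240 genes tested. DESeq2 and limma-voom also called 0 of the 80. Of the 80, 39 lay above 0 on the log2 fold scale and 41 below. Over all genes tested 48.9% lay below 0, with a median of 0.02, and the splits of single lists below stand beside that share. Groups did not overlap for 8 genes in the higher direction (10%) and 3 in the lower (3.75%), beside 4.76% and 6.39% of all genes tested. The adjusted p by edgeR was 0.9997 for every tested gene named in the following paragraphs.

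Of 15 other kinases and phosphatases of soluble inositol phosphates, 10 lay above 0 on the log2 fold scale. The median of the 15 was 0.17. It ranged from 0.058 without C2 to 0.50 without T2, and was 0.60 among the 4 libraries with the most genes detected. Inpp1, which removes a phosphate from inositol bisphosphate and so feeds the monophosphatases, measured 8.46, 4.81 and 4.77 CPM in C1 to C3 and 15.1, 57.7 and 23.6 CPM in T1 to T3. All Bud31-vKO libraries lay above all wild type libraries, and the log2 fold change was 2.42 (standard error 0.999). Impad1, a phosphatase of the Golgi related to the monophosphatases, had 58.9 ± 21.3 CPM in wild type, and in Bud31-vKO 111 ± 46.8 CPM (SD, n = 3 each). Nudt4, a hydrolase of inositol pyrophosphates, had 81.0 ± 24.4 and 129.9 ± 49.0 CPM, and both genes overlapped between the groups. Among 6 tested genes of inositol transport and CDP-diacylglycerol supply, 3 were above 0, and the phosphate exporter gene Xpr1, the CDP-diacylglycerol synthase Tamm41 and Pgs1 of phosphatidylglycerol synthesis had log2 fold changes of 0.58, -0.31 and -0.53.

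Of 18 genes of phosphoinositide kinases, 13 lay below 0 on the log2 fold scale. The 13 include the regulatory subunits Pik3r1 and Pik3r2, at -0.57 and -0.72. The median of the 18 was -0.28. It was -0.75 with limma-voom, -0.54 without T3 and -0.085 among the 4 libraries with the most genes detected. Pip5k1c, which makes phosphatidylinositol 4,5-bisphosphate, measured 101 ± 43.6 CPM in wild type, and in Bud31-vKO 48.1 ± 32.2 CPM (SD, n = 3 each). Pik3ca, a catalytic subunit of PI 3-kinase, had 61.3 ± 11.8 and 92.5 ± 16.6 CPM (SD, n = 3 each) with no overlap, and Pip4k2c a log2 fold change of -0.92 with a standard error of 0.72. Of 25 phosphoinositide phosphatases and phospholipases C, 13 were above 0 and 12 below, with a median of 0.30. The sign of this median was not stable. It was -0.54 with limma-voom (10 above and 15 below), -0.18 without T3, -0.059 without T1 and -0.067 among the 4 libraries with the most genes detected, and 0.014 without C2 and 0.081 without T2. Inpp4a, a phosphatase of phosphatidylinositol 3,4-bisphosphate, measured 103 ± 41.1 and 57.4 ± 14.6 CPM (SD, n = 3 each) with no overlap. Plcb2, a phospholipase C, and Inpp5k had log2 fold changes of -3.22 (standard error 2.10) and 0.54 (standard error 0.41). Plcb2 had at most 13.7 CPM in a library and no read in T2. The inositol trisphosphate receptor genes Itpr1, Itpr2 and Itpr3 had log2 fold changes of 0.29, -1.82 and 0.35 (standard errors 0.56, 1.78 and 0.63). All of them overlapped between the groups, and Itpr2 had no read in T2.

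Of 8 enzymes that use or make glucose 6-phosphate, the substrate of ISYNA1, 6 lay below 0 on the log2 fold scale. The median of the 8 was -0.41. They include the hexokinases Hk1 and Hk2, which make glucose 6-phosphate and had log2 fold changes of 0.16 and -0.27. Without C3 the split was 4 above and 4 below with a median of -0.089, and without T1 the median was -0.22. Gpi1, which turns it into fructose 6-phosphate, measured 615, 766 and 744 CPM in C1 to C3 and 286, 478 and 645 CPM in T1 to T3. T3 lay within the wild type range, and the log2 fold change was -0.59 (standard error 0.34). Pgm1, which links it to glycogen, had a log2 fold change of -0.63 (standard error 0.68). G6pdx, the entry to the pentose phosphate pathway, had one of 0.999 (standard error 1.85), with no read in C3.

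The last list held osmolyte transporters and genes of the osmotic response, and 0 of its 5 tested genes passed the test. Slc5a3, itself an osmolyte transporter, is a member described above, with a log2 fold change of -0.92, and is not counted here. Of the 5, 4 had all Bud31-vKO libraries above all wild type libraries, where 4.76% of all genes tested did. The list was chosen with earlier results of these data known, so this count is a description and nothing is read from it. The list held 6 genes, of which Slc6a12 did not pass the filter. Of the 5 tested, 2 had an unadjusted p under 0.05 by edgeR, beside 443 of all 15240 genes tested. Nothing is read from that count either. The median log2 fold change was 0.48, or 0.25 among the 4 libraries with the most genes detected. Nfat5, the transcription factor that raises osmolyte genes, Slc5a3 among them, when cells lose water, measured 104, 74.6 and 31.8 CPM in C1 to C3 and 223, 153 and 127 CPM in T1 to T3. Slc6a6, the taurine transporter, measured 51.4, 64.1 and 77.3 CPM in C1 to C3 and 143, 149 and 106 CPM in T1 to T3. Their log2 fold changes were 1.26 with a standard error of 0.50 and 1.05 with a standard error of 0.37, and 0.98 and 1.12 among the 4 libraries with the most genes detected. Sgk1, a kinase that cells raise under osmotic stress, and the amino acid transporter Slc38a2 had 0.42 and 0.48. Akr1b3, aldose reductase, which makes the osmolyte sorbitol, was the gene below 0, with -0.41 and a standard error of 0.31. The signs of all 5 genes were the same under RLE and library-size scaling.

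**Figure D5:**
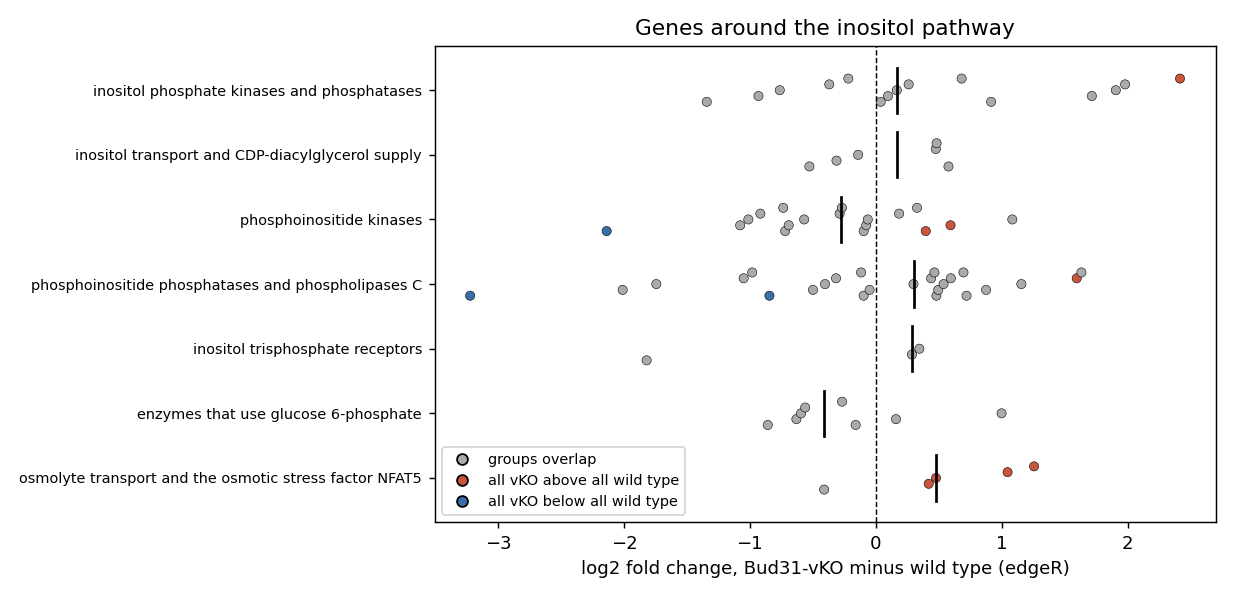
Log2 fold change of Bud31-vKO minus wild type by edgeR (horizontal axis) for the 80 tested genes of 7 lists around the inositol pathway (rows), with the median of each list as a black line. Red points are genes with all Bud31-vKO libraries above all wild type libraries (8 genes, 4 of them in the osmolyte list) and blue points the reverse (3 genes).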

How the data were processed

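The authors deposited whole-number read counts per Ensembl gene for 6 Smart-Seq2 libraries. The submitters' processing notes name bcl2fastq and mm10. The aligner, counter, annotation release and use of strand were not given there or elsewhere in the sources used here. Symbols, positions and exon lengths (union of exons) came from GENCODE M21 on GRCm38, which named 99.6% of the 51912 identifiers. Low counts were filtered by edgeR 4.0.16 (filterByExpr, at least 10 reads and 15 in total), libraries scaled by TMM and genes tested across all genes with the quasi-likelihood F test, Benjamini-Hochberg at 5%. Standard errors were taken as the log2 fold change over the square root of F. Log2 CPM used a prior count of 2. Alternatives used DESeq2 1.42.0 and limma 3.58.1 in R 4.3.3. Figures were drawn with matplotlib 3.10.9. With 3 libraries against 3, exact permutation reaches no p under 0.1 and was not used.

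The members and lists were chosen with earlier results of these data known. Named genes are the 10 members, Bud31, the 5 genes most like Isyna1 and 3 genes per list, by smallest unadjusted p. Slc38a2, Akr1b3, Slc6a12, Hk1, Hk2, Pik3r1, Pik3r2, the markers and the genes that overlap members or Bud31 were added after their values were seen. The profiles of RNA immunoprecipitation were not analysed here.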

Additional observations from a re-analysis of the deposited data

How the results depend on the processing

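The log2 fold change of Isyna1 was below 0 in all 15 alternatives tried, from -2.76 to -1.79, with an adjusted p from 0.00231 to 1. It was past the threshold without a filter on low counts (-2.42) and with DESeq2 (-2.41), where 7 and 47 genes were called over all genes and 1 member each time, Isyna1. As the gene was chosen by this contrast, nothing is read from these calls or from the sign staying the same. In the other 13 alternatives 0 genes were called. Leaving out 1 library at a time gave -2.76 to -2.10 for Isyna1. For several other members the sign turned; the cause was not tested. With RLE scaling and DESeq2 the value of Itpk1 was 0.036 in both, and with limma-voom 0.21. With limma-voom Ip6k1 was at -0.091. With C1, C2, T1 and T3 alone Impa1 was at -0.41, Slc5a3 at 0.20 and Ippk at -0.19. Leaving out 1 library gave -0.16 to 0.42 for Impa1, -0.61 to 0.66 for Itpk1, -0.31 to 0.61 for Ip6k1 and -0.0012 to 0.45 for Ip6k2. Slc5a3 was at -3.47 with limma-voom and at -2.08 with the replicate block. The median of the genes of inositol transport and CDP-diacylglycerol supply went from -0.41 without T1 to 0.69 without T2. No list gene was called in any alternative. Of the 5 genes most like Isyna1, 4 were the same by Spearman's rho.

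With the library number as a replicate block Itpk1 was at 0.28, Ip6k1 at -0.054 and Isyna1 at -2.44, and 0 genes were called. The list medians were -0.56 for the phosphoinositide kinases and -0.40 for the phosphoinositide phosphatases and phospholipases C. No label says that the numbers pair libraries, and the deviations of same-numbered libraries from their group means correlated at 0.19, 0.04 and -0.08 over 15240 genes.

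Low counts limit Miox and Ip6k2, and single libraries at or near 0 limit Slc5a3, Itpk1 and Ippk.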
